A study of Mus musculus with 12 samples.

Results

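Fulvestrant added on top of E2 shifted RNA levels in hernia-associated fibroblasts (HAFs), and the gene families among the shifted genes are described here beyond the genes that the study itself lists. The comparison rested on 6 of the 12 RNA-Seq samples, 3 with 10 nM E2 and 3 with 10 nM E2 plus 100 nM fulvestrant, each treated for 48 h, and covered all 13233 genes in the table. Samples were chosen by their treatment labels and matched by replicate number. HAFs are primary skeletal muscle fibroblasts from the lower abdominal muscle (LAM) of Aromhum mice, which carry the human aromatase gene, and every group shares that genotype. The cells were passaged once, starved of serum overnight, pretreated with fulvestrant or its solvent DMSO, and then given E2 or its solvent ethanol in medium with charcoal-stripped serum. The other 6 samples, 3 with vehicle (ethanol and DMSO) and 3 with 100 nM fulvestrant alone for 48 h, served for a comparison in separate samples. Fibroblasts of mice without the aromatase gene were not part of the comparison. Neither the labels nor the methods say whether a replicate number stands for a separate mouse or culture, so p-values measure only the spread between these samples, which may be technical.

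E2 is estradiol, the ligand of estrogen receptor-α (ESR1), a nuclear receptor that binds DNA and recruits coactivators to its target genes. Fulvestrant occupies the same receptor, blocks its activation and leads to loss of the receptor protein. Fibroblasts of muscle make the collagens, proteoglycans and elastic fibers of the matrix, and growth factor or stress signals reach their nuclei through MAP kinases that switch on the immediate early genes.

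The 6 samples held between 20665975 and 35739876 reads on the listed genes, with no gene under 10 reads in any of them. Replicate number accounted for 75.4% of the variance of log2(normalized count + 1) and treatment for 16.1%, and the first principal component, with 72.8% of the variance, set both replicate 1 samples apart from the others. The deviations of same-numbered E2 and E2 plus fulvestrant samples from their group means correlated across genes at r = 0.88, 0.68 and 0.70. Replicates 2 and 3 correlated as well with each other across the groups (r = 0.68 to 0.70). All 11 fibroblast markers were listed, led by Col1a2 with 186314 ± 69962 normalized counts (mean ± SD, n = 3) with E2. None of the 8 myogenic or the 5 epithelial and mesothelial markers was among the genes analysed here. Endothelial and immune markers were low, with sums of 65.1 to 259 normalized counts for the endothelial list (Tek alone) and 168 to 447 for the immune list (Cd68, Lyz2 and Cd14) over the 6 samples, and none of these was called, nor was the adipocyte marker Pparg. The pericyte and smooth muscle list, much of which fibroblasts in culture also express, had 5 of 6 markers listed, with sums of 17838.6 to 19081.2 with E2 and 16482.2 to 17264.6 with E2 plus fulvestrant, and Acta2 was called higher. The summed fibroblast markers ran from 534999 to 602422 normalized counts with E2 and from 396382 to 405590.4 with E2 plus fulvestrant. This sum weighs collagen RNA heavily, with Col1a2 alone at a mean of 186314 with E2, so it does not measure fibroblast content. Pdgfra, another of the fibroblast markers, was not called (0.20). Of these markers Col1a1, Lum, Dpt and Esr1 were called higher with E2 and none lower, and the part of this shift in the results for matrix genes was not tested. In such samples fewer cells of a type and less RNA per cell cannot be told apart.

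With E2, 539 genes were higher than with E2 plus fulvestrant and 609 were lower. These were 4.07% and 4.60% of the 13233 genes tested, called at a Benjamini-Hochberg adjusted p under 0.05 and a fold change over 1.2 in limma with replicate number as a block. Every difference below is the mean over the 3 pairs of log2(normalized count + 1) with E2 minus that with E2 plus fulvestrant, so a positive value means higher with E2. The median difference was 0.56 among the genes called higher, -0.46 among those called lower and -0.01 over all genes. Differences over 2-fold were found for 98 of the genes called higher and 66 of those called lower. The counts moved with the pairs in the fit: without replicate 1 they were 883 higher and 1073 lower, without replicate 2 333 and 403, and without replicate 3 200 and 151. Without the replicate block, the same threshold was passed by 6 genes higher and 2 lower. Of the 1148 called genes, 1118 were protein-coding, and 1081 were outside the genes listed by the study. All 1148 had the same sign in all 3 pairs, which 48.4% of all genes tested had. Agreement of the pairs in a called gene, as given below, therefore comes with the call and is no separate support.

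Apart from genes that the study itself lists, such as Pgr and Esr1, the genes with the largest excess with E2 over E2 plus fulvestrant included receptors, secreted proteins and a steroid enzyme. Robo2, a receptor for the guidance protein Slit (chromosome 16, 73891839 to 74411825, GRCm38), had 774, 153 and 139 normalized counts with E2 and 65.0, 39.4 and 20.7 with E2 plus fulvestrant (log2 difference 2.72 ± 0.30 (SE), limma adjusted p = 0.00369). The groups did not overlap, although the E2 sample of replicate 1 was far above the other two. Akr1c14, an aldo-keto reductase that acts on steroids, had 608, 757 and 722 normalized counts with E2 and 163, 136 and 116 with E2 plus fulvestrant (log2 difference 2.33 ± 0.16 (SE), limma adjusted p = 0.000691). Slco2a1, which carries prostaglandins into the cell, had 339, 468 and 409.8 normalized counts with E2 and 89.6, 89.8 and 78.2 with E2 plus fulvestrant (log2 difference 2.22 ± 0.14 (SE), limma adjusted p = 0.000677). For both genes each E2 sample lay more than 3 times above each E2 plus fulvestrant sample. Col14a1, a fibril-associated collagen, had 361, 305 and 288 normalized counts with E2 and 60.1, 99.9 and 105 with E2 plus fulvestrant (log2 difference 1.87 ± 0.23 (SE), limma adjusted p = 0.00546). Sfrp2, a secreted Wnt antagonist, had 1053, 2733 and 2525 normalized counts with E2 and 136, 1091 and 1131 with E2 plus fulvestrant (log2 difference 1.81 ± 0.32 (SE), limma adjusted p = 0.0181). Its groups overlapped, since replicate 1 was low in both, but each pair moved the same way. The remaining genes of this rank were Ryr3, an intracellular calcium release channel, with a difference of 2.04, Daam2, a formin of Wnt signaling, with 1.91, and Chodl, a membrane lectin, with 1.87. They were joined by the transcription factor Foxp2 (1.77), the BMP family ligand Gdf10 (1.75), the secreted Angptl1 (1.73) and Cthrc1, a secreted protein with a collagen repeat (1.71). Ryr3 rested mainly on replicate 1, with 825, 53.5 and 71.4 normalized counts with E2 and 66.0, 27.5 and 23.4 with E2 plus fulvestrant and an adjusted p of 0.043 in limma.

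The genes most above their E2 level with E2 plus fulvestrant, again apart from those listed by the study, were led by enzymes and surface proteins. Sult1a1, a sulfotransferase of phenols and estrogens (chromosome 7, 126672865 to 126676432), had 64.1, 43.1 and 37.0 normalized counts with E2 and 1001, 452 and 435 with E2 plus fulvestrant (log2 difference -3.61 ± 0.15 (SE), limma adjusted p = 0.000278). Pi16, a secreted protein used as a fibroblast marker, had 119, 107 and 96.6 normalized counts with E2 and 646, 522 and 504 with E2 plus fulvestrant (log2 difference -2.36 ± 0.11 (SE), limma adjusted p = 0.000279). Map3k6, a kinase at the head of stress MAP kinase cascades, had 101, 129 and 110.0 normalized counts with E2 and 588, 481 and 451 with E2 plus fulvestrant (log2 difference -2.15 ± 0.15 (SE), limma adjusted p = 0.000781). In these genes each E2 sample lay below each E2 plus fulvestrant sample, and the 3 pairs were close to each other. Ctla2a, a cathepsin inhibitor with 16.3% of its exon sequence shared with another gene, was the most abundant gene of this rank, with 1893, 4315 and 4433 normalized counts with E2 and 8489, 15336 and 16189 with E2 plus fulvestrant (log2 difference -1.95 ± 0.07 (SE), limma adjusted p = 0.000278). Aldh1a1 and Aldh1a7, neighboring aldehyde dehydrogenase genes on chromosome 19, differed by -1.62 and -1.78. Aldh1a1, which makes retinoic acid, had 2135, 789 and 776 normalized counts with E2 and 4973, 2878 and 2661 with E2 plus fulvestrant. Its groups did not overlap, whereas those of Aldh1a7 did, because replicate 1 was high in both. The other genes were Ace, the angiotensin-converting enzyme (-2.02), the cytoskeletal linker Ppl (-2.01), Vat1l (-1.97), the adhesion receptor Adgrg2 (-1.85), and the secreted proteins Nell2 (-1.79) and Nxph3 (-1.71). Of the 24 genes of both directions, 24 kept their call without replicate 1 and without replicate 2, and 21 did so without replicate 3. Without the variance trend in limma 13 kept it, and without the replicate block 4 did.

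**Figure D1:**
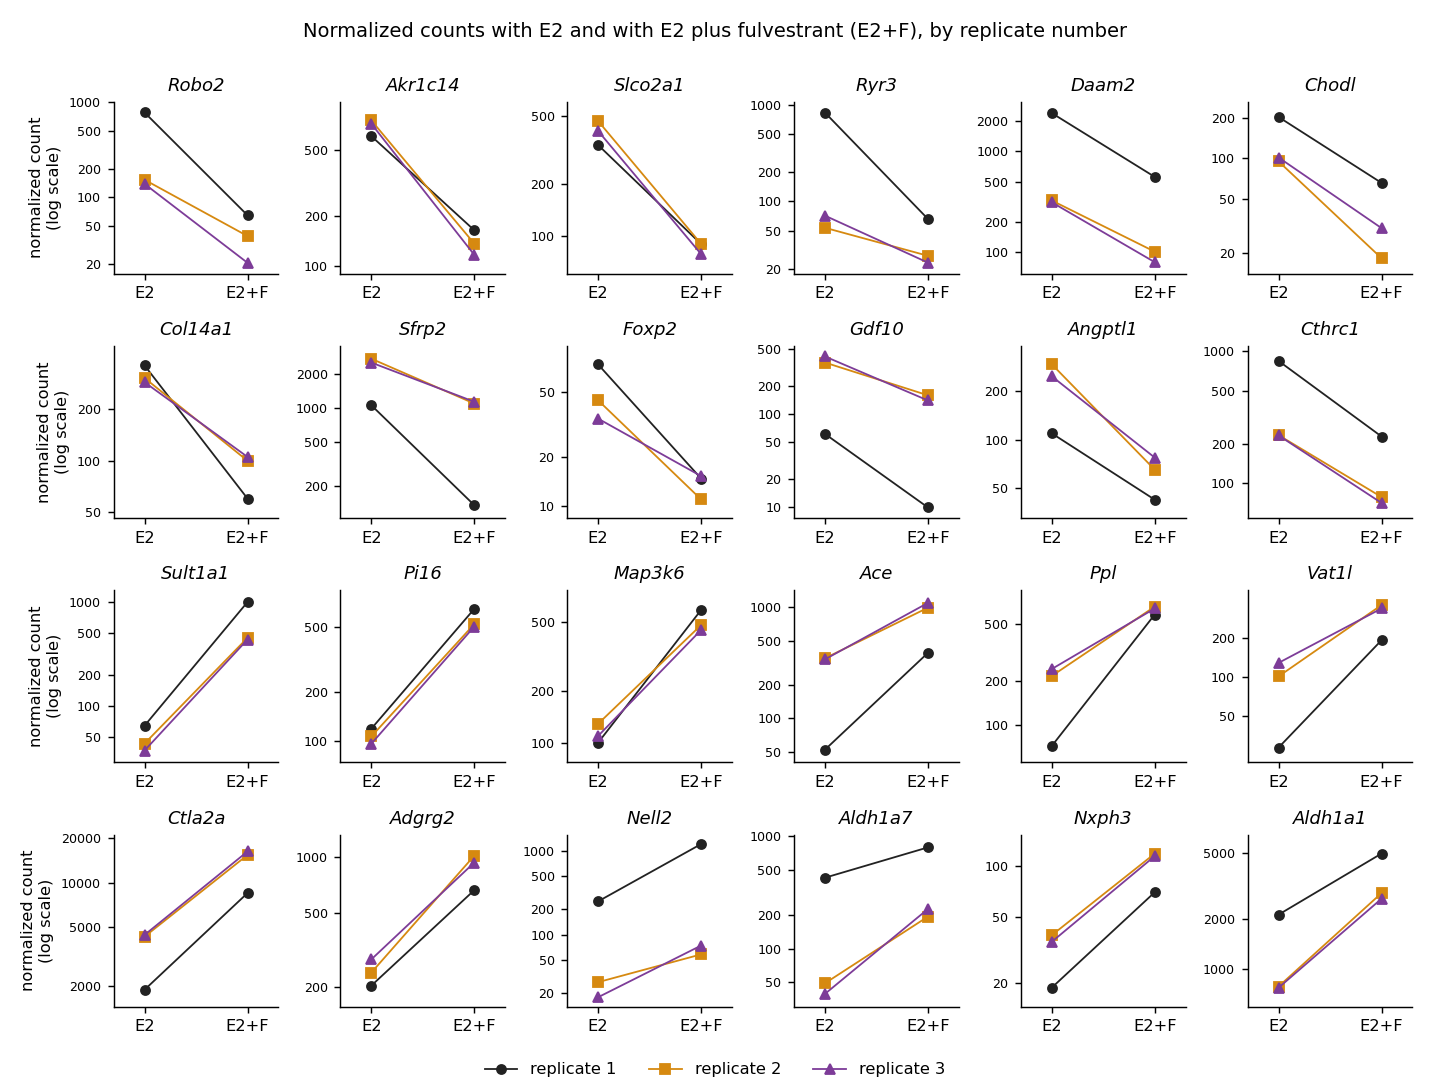
Normalized counts (log axis) of the 24 protein-coding genes with the largest called differences, 12 in each direction and none of them listed by the study, with E2 on the left and E2 plus fulvestrant (E2+F) on the right of each panel, and a line joining the samples of each replicate number. The 12 genes of the upper rows fell and the 12 of the lower rows rose along every line, as the rule that chose them required. Replicate 1 often lay apart from the other replicates, as for Daam2 and Nell2.

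The same contrast without added E2, vehicle against fulvestrant alone, used 6 other samples. It called 330 genes higher with vehicle and 362 lower, 2.49% and 2.74% of the genes tested. These counts were 957 and 1251 when replicate 1 was left out, 52 and 48 for replicate 2, and 11 and 9 for replicate 3. Of the 539 genes higher with E2, 250 (46.4%) were also higher with vehicle, and these were 75.8% of the vehicle list. Of the 609 genes lower with E2, 288 (47.3%) were also lower with vehicle, 79.6% of that list, and 0 genes were called in opposite directions. Across the 13233 genes, which are not independent of each other, the differences of both contrasts correlated at r = 0.75, and both sets of samples share the replicate numbers. The interaction of E2 and fulvestrant, fitted by limma on all 12 samples, called 0 genes, with 501 at an unadjusted p under 0.05. The smallest interaction p among the called genes of the lists belonged to Aspn and Agtr2 (adjusted p = 0.237 for each). Aspn differed by -0.39 with E2 and -1.26 without it, and Agtr2 by 1.51 and 0.60. Among the leading genes, Akr1c14 and Slco2a1 had pairs of unlike sign without added E2, of -0.27, 2.07 and 1.22 for Akr1c14 and -0.88, 0.96 and 1.46 for Slco2a1 in replicates 1, 2 and 3, and their interaction was not called (limma adjusted p = 0.944 for both). Robo2 and Sult1a1 stood at 2.97 and -3.95 without added E2. Set against vehicle, samples that took no part in choosing the genes and that both differences share, the genes called higher with E2 had a median difference of 0.03 with E2 and -0.54 with E2 plus fulvestrant. The genes called lower with E2 stood at 0.03 with E2 and 0.49 with E2 plus fulvestrant. In the medians, both lists lay close to vehicle with E2 and away from it with E2 plus fulvestrant.

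**Figure D2:**
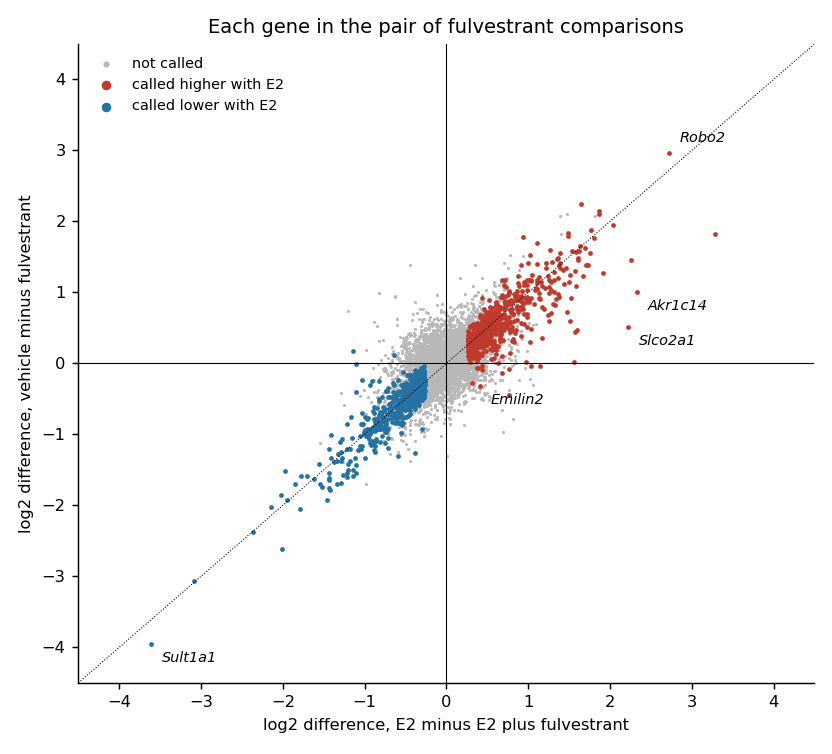
Log2 difference of each of 13233 genes for E2 minus E2 plus fulvestrant (horizontal) and vehicle minus fulvestrant (vertical), with genes called in the first contrast in red (higher with E2) and blue (lower), and equality as a dotted line. The called genes follow the line (r = 0.75 over all genes), with Slco2a1 and Akr1c14 to its right and Emilin2 below 0 on the vertical axis.

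Gene lists by name and role, 58 in all, were set beside these calls. They held 2359 of the genes tested and 398 of the called ones, and 42 lists had at least 4 called members. Read against 4.07% of all genes higher and 4.60% lower, some lists had called members mainly higher with E2. Among these were the guidance, cadherin, elastic fiber, Adamts, Wnt and IGF lists. In others the called members were mainly lower, among them the immediate early, MAP kinase, glycolytic and antioxidant lists. Collagen chains, integrins, serpins and matricellular genes were split. Some genes belong to more than one list. The lists also hold genes that the study itself lists or names, not marked each time below. Among these are Fkbp5, Cdkn1c, Klf15, Dusp14, Pdk4, Col4a2, Stim1, Piezo2, Ccn3 and Nrp2. Of 58 counts of at least 3 called members, by list and direction, 49 changed by over 1.5 times when a replicate number was left out. Without the variance trend in limma, 54 of these counts changed by as much, with 0 immediate early genes called lower and 0 cadherins, 1 elastic fiber gene and 1 homeobox factor called higher.

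**Figure D3:**
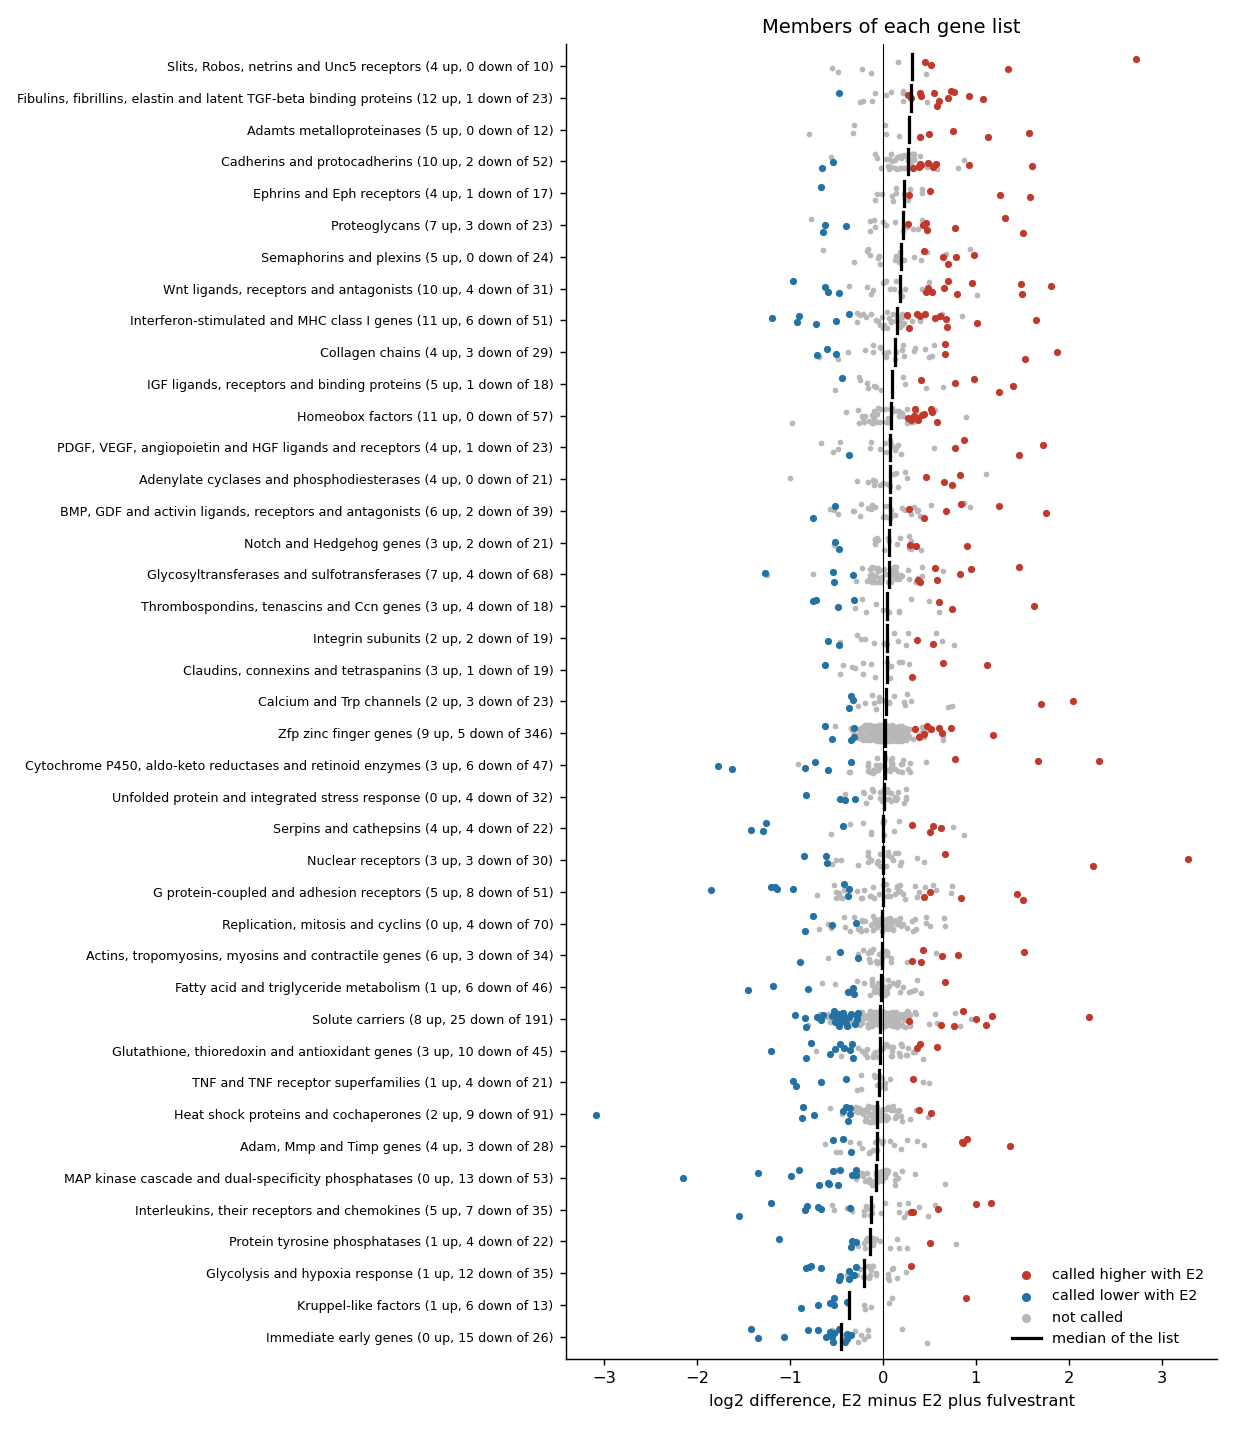
Log2 difference (E2 minus E2 plus fulvestrant) of each member of 41 of the 42 lists with at least 4 called members, ordered by the median of the list (black bar), with the numbers called higher (up) and lower (down) beside each name. The medians run from -0.45 for immediate early genes to 0.31 for Slits, Robos, netrins and Unc5 receptors, and most lists have their median near 0.

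Immediate early genes encode transcription factors and feedback proteins that are transcribed at once when a cell receives a growth factor or stress signal. Of 26 tested, 15 (57.7%) were lower with E2, 0 were higher, and the median was -0.45 (-0.46, -0.50 and -0.51 in the 3 pairs). Fosl1, a partner of Jun in the AP-1 factor (chromosome 19, 5447547 to 5455946), had 115, 1128 and 1113 normalized counts with E2 and 465, 2350.0 and 2588 with E2 plus fulvestrant (log2 difference -1.43 ± 0.17 (SE), limma adjusted p = 0.00517). Dusp1, the phosphatase that inactivates stress MAP kinases, had 296, 1555 and 1610.5 normalized counts with E2 and 1316, 3035 and 3052 with E2 plus fulvestrant (log2 difference -1.34 ± 0.23 (SE), limma adjusted p = 0.0159). Atf3, a stress-induced repressor, had 15.8, 2699 and 2658 normalized counts with E2 and 57.1, 4244 and 4459 with E2 plus fulvestrant (log2 difference -1.06 ± 0.21 (SE), limma adjusted p = 0.0271). In these genes the groups overlapped across replicate numbers, while within each pair the E2 sample lay below. Jun itself differed by -0.81, Klf4 by -0.70, the orphan receptor Nr4a1 by -0.61 and Egr1 by -0.57, and Zfp36, which destabilizes cytokine mRNAs, by -0.55. The replicate 1 pair had the largest difference for these genes, but for Ier2, Ier3, Klf2, Klf6 and Maff it had the smallest. Without replicate 1, 2 or 3 the number called lower was 19, 11 and 4, while the median stayed between -0.52 and -0.42 over all settings tried. Without added E2, 11 were called lower with vehicle than with fulvestrant, and the median was -0.52.

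The called genes of the MAP kinase cascade and its phosphatases lay in the same direction. Of 53 genes tested, 13 (24.5%) were lower with E2 and 0 higher, with a median of -0.08. Beside Map3k6 and Dusp1, the list held Dusp5 (-0.99), Dusp14 (-0.90), Dusp6 (-0.69) and Dusp4 (-0.58), which encode phosphatases that act on MAP kinases. Dusp6 had 551, 971 and 958 normalized counts with E2 and 1035, 1378 and 1506 with E2 plus fulvestrant. Each E2 sample of Dusp6 lay below each E2 plus fulvestrant sample. The kinase gene Mapk6 was lower as well (-0.59). Kruppel-like factors, zinc finger proteins of which several answer to glucocorticoids or shear stress, had 6 of 13 members lower (46.2%) and a median of -0.37. They were led by Klf15 (-0.88), Klf4 (-0.70) and Klf13 (-0.57). Klf12, a repressor, was the member called the other way (0.89), with 868, 439.9 and 466 normalized counts with E2 and 393, 245 and 287 with E2 plus fulvestrant. The groups of Klf12 did not overlap. Protein tyrosine phosphatases had 4 of 22 lower, led by Ptpre (-1.12), and Ptprv higher (0.51). Calls lower without replicate 1, 2 or 3 numbered 14, 9 and 4 for the MAP kinase list and 7, 5 and 3 for the Kruppel-like factors.

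Promoter sequence is shown for immediate early genes that hold a site for CREB and ATF factors. The motif TGACGTCA, read on both strands, was present in the promoters of Dusp1 and Maff among 12 called immediate early genes with an entry in the RefSeq promoter table (build GRCm38.p6, 250 bases before to 50 bases after the start of transcription). It occurs in 2.03% of all 27025 genes of that table. The AP-1 motif TGANTCA was in 0 of the 12 promoters and in 8.97% of all genes. A match is a run of letters and not a shown binding site. Both promoters are given 5′ to 3′ on the strand of the gene, with the motif in capitals, Dusp1 from chr17:26508423-26508722 (minus strand) and Maff from chr15:79347270-79347569 (plus strand).
Dusp1: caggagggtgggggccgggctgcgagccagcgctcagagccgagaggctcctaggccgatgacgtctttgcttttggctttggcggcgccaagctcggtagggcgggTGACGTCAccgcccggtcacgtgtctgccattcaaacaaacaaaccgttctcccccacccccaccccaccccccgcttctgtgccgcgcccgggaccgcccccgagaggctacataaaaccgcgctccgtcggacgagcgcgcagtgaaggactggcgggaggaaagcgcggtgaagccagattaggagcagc
Maff: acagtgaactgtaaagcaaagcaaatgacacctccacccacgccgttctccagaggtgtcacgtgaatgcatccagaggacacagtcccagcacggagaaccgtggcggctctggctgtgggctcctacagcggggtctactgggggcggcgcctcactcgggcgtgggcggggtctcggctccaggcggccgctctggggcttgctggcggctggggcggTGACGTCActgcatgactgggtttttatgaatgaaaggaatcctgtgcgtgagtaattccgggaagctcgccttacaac
In Maff, whose difference was -0.53 (adjusted p = 0.0353 in limma), the motif starts 29 bases before the transcription start, and in Dusp1 143 bases before it.

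Interferon-inducible genes split into opposite groups. Of 51 genes of the interferon and MHC class I list, 11 (21.6%) were higher with E2 and 6 (11.8%) lower, with a median of 0.15. The genes higher with E2 were antiviral effectors and their activators: Ifi44 (1.64), Ifit1, which binds viral RNA (1.01), the oligoadenylate synthetase-like Oasl2 (0.69), guanylate-binding proteins such as Gbp4 (0.68), and the transcription factor Stat2 (0.28). Ifit1 had 129, 375 and 360.2 normalized counts with E2 and 84.7, 160.4 and 156 with E2 plus fulvestrant (log2 difference 1.01 ± 0.16 (SE), limma adjusted p = 0.0136). Across replicate numbers the Ifit1 ranges of the groups overlapped, while in each pair E2 lay above. The genes lower with E2 were, apart from Ifi30 (-0.37), a thiol reductase of lysosomes, the neighboring p200 genes Ifi207 (-1.20), Ifi202b (-0.92), Ifi204 (-0.90), Ifi211 (-0.72) and Ifi203 (-0.51). These genes of DNA-sensing proteins lie on chromosome 1 between 173723427 and 173982744, and as near copies of each other they may share reads. Ifi207 had 28.6, 450.4 and 419 normalized counts with E2 and 85.7, 856 and 912 with E2 plus fulvestrant (log2 difference -1.20 ± 0.14 (SE), limma adjusted p = 0.00503). For Ifi207 the groups overlapped and the 3 pairs agreed in direction. With quantile normalization or CPM by library total, 7 were called higher. The number called higher was 18, 1 and 0 without replicate 1, 2 or 3, and the number called lower was 6, 6 and 3. Without added E2, 6 were called higher and 5 lower.

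**Figure D4:**
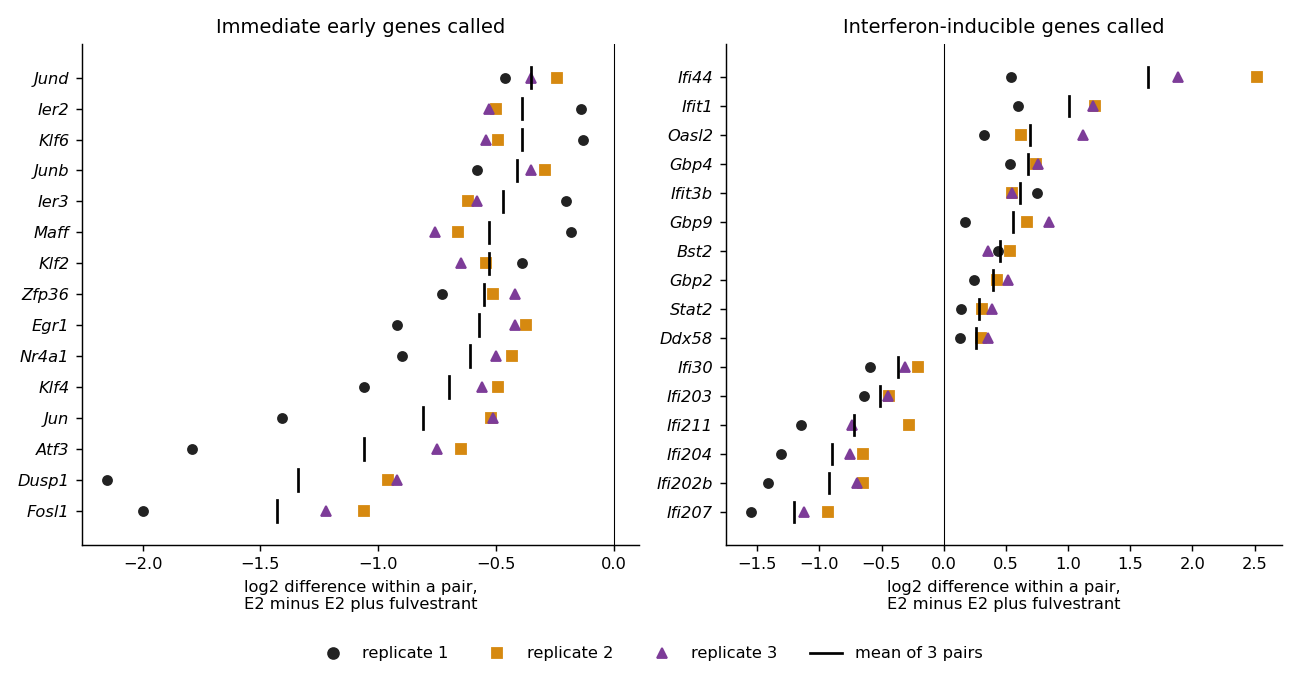
Log2 difference (E2 minus E2 plus fulvestrant) within each pair for the 15 called immediate early genes (left) and 16 of the 17 called interferon-inducible genes (right), with symbols by replicate number and a bar at the mean. Replicate 1 has the widest difference for Dusp1, Fosl1 and the p200 genes and the narrowest for most of the antiviral genes.

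Members of both groups carry a core of the interferon response element, and their promoters are shown for that reason. The letters GAAANNGAA, on either strand, occur in 9.76% of all genes of the promoter table. They were found for Ifit1 and Ifi44, both higher with E2, and for Ifi207 and Ifi203, both lower. Among the called genes of the list with an entry they were also found for Bst2, Ddx58, Gbp2, Ifit3b and Stat2, all higher, and for Ifi211, which was lower, but not for Oasl2, Ifi202b and Ifi30. A share over the called genes of the list was not drawn, because 13 of 17 had an entry, fewer than 80%. The windows are Ifit1 chr19:34640639-34640938 (plus strand) and, all on the minus strand, Ifi44 chr3:151749861-151750160, Ifi207 chr1:173741760-173742059 and Ifi203 chr1:173942443-173942742, each written 5′ to 3′ along the gene with the motif in capitals (RefSeq, GRCm38.p6).
Ifit1: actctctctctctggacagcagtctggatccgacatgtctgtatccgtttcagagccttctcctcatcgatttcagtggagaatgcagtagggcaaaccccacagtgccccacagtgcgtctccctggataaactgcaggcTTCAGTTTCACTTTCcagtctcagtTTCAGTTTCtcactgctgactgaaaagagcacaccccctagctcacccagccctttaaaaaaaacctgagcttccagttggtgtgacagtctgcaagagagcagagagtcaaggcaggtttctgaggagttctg
Ifi44: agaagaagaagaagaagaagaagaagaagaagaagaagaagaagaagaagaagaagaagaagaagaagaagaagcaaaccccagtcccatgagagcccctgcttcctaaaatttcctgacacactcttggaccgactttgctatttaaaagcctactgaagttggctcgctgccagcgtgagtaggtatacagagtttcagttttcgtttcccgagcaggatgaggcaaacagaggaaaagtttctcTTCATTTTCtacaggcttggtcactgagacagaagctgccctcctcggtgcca
Ifi207: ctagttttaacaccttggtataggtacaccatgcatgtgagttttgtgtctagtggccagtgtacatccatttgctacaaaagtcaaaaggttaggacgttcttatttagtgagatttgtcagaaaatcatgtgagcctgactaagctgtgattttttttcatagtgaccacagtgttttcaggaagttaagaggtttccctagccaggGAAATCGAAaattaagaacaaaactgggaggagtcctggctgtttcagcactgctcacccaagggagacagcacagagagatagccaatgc
Ifi203: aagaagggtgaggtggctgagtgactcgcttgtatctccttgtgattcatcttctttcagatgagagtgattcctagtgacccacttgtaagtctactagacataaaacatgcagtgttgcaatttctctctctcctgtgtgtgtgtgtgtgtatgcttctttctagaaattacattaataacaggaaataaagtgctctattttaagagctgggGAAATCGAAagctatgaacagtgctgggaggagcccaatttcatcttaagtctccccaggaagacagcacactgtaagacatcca
The Ifit1 window has 3 matches, of which some overlap, the first 109 bases before the start. In Ifi207 and Ifi203 the single match begins 41 and 35 bases before it.

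Axon guidance proteins also steer migrating cells outside the nervous system, and their called genes were mostly higher with E2. Of 10 Slits, Robos, netrins and Unc5 receptors, 4 were higher (40%) and 0 lower, namely Robo2, Unc5c, a netrin receptor (1.35), the ligand Slit2 (0.52) and the receptor Robo1 (0.45). Unc5c had 1718, 2432 and 2153 normalized counts with E2 and 647, 935 and 894 with E2 plus fulvestrant (log2 difference 1.35 ± 0.06 (SE), limma adjusted p = 0.000278). In Unc5c every E2 value stood above every E2 plus fulvestrant value. Semaphorins and their plexin receptors had 5 of 24 higher and 0 lower, led by Sema6a (0.98), Plxnc1 (0.78) and Sema5a (0.70). Among 17 ephrins and Eph receptors, Epha7 (1.59), Epha3 (1.26), Ephb6 (0.51) and Ephb4 (0.28) were higher and Epha2 (-0.67) was lower. Epha3 had 3071, 1482 and 1242 normalized counts with E2 and 1426, 542 and 534 with E2 plus fulvestrant. Within each pair the E2 sample of Epha3 lay above, but across pairs the groups overlapped. Leaving out replicate 1, 2 or 3 gave 4, 4 and 3 calls higher in the Slit and Robo list, 8, 3 and 2 among the semaphorins and 4, 3 and 1 among the ephrins. Calls lower in the Slit and Robo list then numbered 3, 2 and 0, and 1, 1 and 0 among the semaphorins.

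Cadherins and protocadherins, which hold cells together through calcium-dependent contacts, had 10 of 52 members higher (19.2%) and 2 lower, with a median of 0.27. The leading members were Cdh18 (1.61), Pcdh18 (0.92) and Dchs1 (0.57). Pcdh18 had 6189, 6649.8 and 6442 normalized counts with E2 and 2653, 3753 and 3896 with E2 plus fulvestrant. Each E2 sample of Pcdh18 lay above each E2 plus fulvestrant sample. Clustered protocadherins such as Pcdhgb6 (0.32) share exons with neighboring genes, 45.2% of its exon sequence, and are uncertain. Such clustered genes are most of the 52 members, so the median of the list rests largely on them. Pcdh1 (-0.65) and Pcdh9 (-0.54) were lower. The number called higher was 18, 4 and 2 without replicate 1, 2 or 3. Integrin subunits, the receptors for matrix, were split, with the collagen receptor subunit Itga11 (0.37) and Itga2b (0.54) higher and the fibronectin and laminin receptor subunits Itga5 (-0.47) and Itga6 (-0.59) lower among 19. Of 19 claudins, connexins and tetraspanins, Tspan7 (1.11), Tspan6 (0.64) and Tspan3 (0.31) were higher and Tspan14 (-0.63) was lower.

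Elastic fiber genes had the highest share of members higher with E2 among the lists. Elastic fibers are built on fibrillin microfibrils, to which fibulins and emilins attach and which store latent TGF-β. Of 23 members, 12 (52.2%) were higher and 1 lower, with a median of 0.30 that stayed between 0.30 and 0.33 over the settings tried. Mfap4, a microfibril-associated glycoprotein, had 11437, 2335 and 2178 normalized counts with E2 and 5801, 1025 and 1035 with E2 plus fulvestrant (log2 difference 1.08 ± 0.06 (SE), limma adjusted p = 0.000378). For Mfap4 the groups overlapped and the 3 pairs agreed in direction. The fibrillins Fbn2 (0.76) and Fbn1 (0.58), the fibulin Fbln5 (0.93) and the crosslinking enzyme Loxl1 (0.70) were higher as well. Loxl4, of the same enzyme family, was lower (-0.47). Emilin2 was higher (0.41) but stood at -0.32 without added E2, a difference that did not pass the limma interaction test (adjusted p = 0.944). The number called higher was 13, 8 and 7 without replicate 1, 2 or 3. A few of the called members, Fbln5, Ltbp1, Efemp1 and Fbln7, are among the genes listed by the study.

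Collagen chains did not move as one. Of 29, 4 were higher and 3 lower with E2. The fibril-associated collagens Col14a1 and Col12a1 (1.53) led, followed by the network collagen Col8a2 (0.67) and the fibrillar Col1a1 (0.67). Col1a1 had 102846, 63651 and 54982 normalized counts with E2 and 63386, 39438 and 36068 with E2 plus fulvestrant (log2 difference 0.67 ± 0.10 (SE), limma adjusted p = 0.00954). The groups of Col1a1 overlapped, although each pair moved the same way. Col1a2 and Col3a1 had values of 0.53 and 0.55 and were not called (limma adjusted p = 0.0915 and 0.0562). The basement membrane chains Col4a1 (-0.60) and Col4a2 (-0.51) and the fibrillar Col5a3 (-0.71) were lower. Of 23 genes in a joint list of proteoglycans and ADAMTS-like (Adamtsl) glycoproteins, 7 (30.4%) were higher and 3 lower. Lum, the collagen-binding proteoglycan lumican, had 1200.4, 3942 and 3736 normalized counts with E2 and 625, 1312 and 1407 with E2 plus fulvestrant (log2 difference 1.31 ± 0.12 (SE), limma adjusted p = 0.00186). Within each pair the E2 sample of Lum lay above, but across pairs the groups overlapped. Adamtsl1 (1.5) and Adamtsl3 (0.77) were higher too, whereas Adamtsl5 (-0.65), Adamtsl4 (-0.63) and Aspn (-0.39), which encodes asporin, were lower. In the absence of replicate 1, 2 or 3, 6, 4 and 3 collagens and 8, 6 and 5 genes of the joint list were called higher. Those called lower were 6, 3 and 1 and 4, 4 and 2.

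Called genes of enzymes that cut matrix were higher or split, and most members of these lists were not called. Of 12 Adamts metalloproteinases, 5 (41.7%) were higher and 0 lower, led by the procollagen-processing Adamts3 (1.58), the aggrecan-cleaving Adamts4 (1.13) and Adamts15 (0.76). Adamts4 had 229.8, 209.6 and 199.8 normalized counts with E2 and 84.7, 96.2 and 112 with E2 plus fulvestrant. In Adamts4 every E2 value stood above every E2 plus fulvestrant value. Without added E2 the pairs of Adamts15 differed by -1.53, 0 and 0.18, and the interaction was not called (limma adjusted p = 0.944). Calls higher in the Adamts list numbered 5, 5 and 2 when replicate 1, 2 or 3 was left out. Among 28 Adam, Mmp and Timp genes, Adam22 (1.36), the membrane-bound Mmp16 (0.91), Mmp9 (0.86) and the inhibitor Timp3 (0.85) were higher and Timp1 (-0.54), Adam15 (-0.43) and Adam9 (-0.35) lower. Serpins, inhibitors of serine proteases, and cathepsins had 4 members higher, led by Serpine2 (0.62), and 4 lower of 22. Serpina3n had 764, 1784 and 1821 normalized counts with E2 and 2856, 4037 and 4175 with E2 plus fulvestrant (log2 difference -1.42 ± 0.14 (SE), limma adjusted p = 0.0026). The Serpina3n values of the groups were apart from each other. Serpina3m differed by -1.26. Serpina3m and Serpina3n are neighbors of similar sequence on chromosome 12 and may share reads. Matricellular genes were split, with Ccn3 (1.62), Postn (0.75) and Thbs2 (0.60) higher and Spp1 (-0.75, 18.8% of its exon sequence shared), Ccn1 (-0.73), Ccn2 (-0.49) and Tnc (-0.31) lower.

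Wnt ligands, receptors and antagonists had 10 of 31 members higher with E2 (32.3%) and 4 lower (12.9%), with a median of 0.18. Those higher included secreted antagonists and secreted enhancers alike: Sfrp2 and Sfrp1 (0.96) bind Wnt proteins, while the R-spondins Rspo2 (1.49) and Rspo3 (1.49) strengthen Wnt signaling. Rspo3 had 5675, 1507 and 1515 normalized counts with E2 and 1303, 704 and 641 with E2 plus fulvestrant (log2 difference 1.49 ± 0.18 (SE), limma adjusted p = 0.00558). Each E2 sample of Rspo3 lay above each E2 plus fulvestrant sample. Sfrp1 had 3871, 10719 and 9472 normalized counts with E2 and 1813, 5383 and 5474 with E2 plus fulvestrant. Within each pair the E2 sample of Sfrp1 lay above, but across pairs the groups overlapped. The members lower with E2 were Nkd2 (-0.97), an intracellular inhibitor, Tcf7l1 (-0.63), a repressor, Wnt9a (-0.59) and Rspo1 (-0.47). Without replicate 1, 2 or 3, 13, 8 and 6 were called higher.

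The insulin-like growth factor (IGF) axis had 5 of 18 members higher (27.8%). The ligand Igf1 had 2786, 2906 and 2847 normalized counts with E2 and 1647, 1674 and 1662 with E2 plus fulvestrant (log2 difference 0.78 ± 0.05 (SE), limma adjusted p = 0.000612). No E2 plus fulvestrant sample of Igf1 reached into the range of the E2 samples. The binding proteins Igfbp5 (1.39), Igfbp3 (1.25) and Igfbp4 (0.97), which hold IGF outside the cell, were higher too, and the RNA-binding Igf2bp2 (-0.44) was lower. Leaving out replicate 1, 2 or 3 gave 7, 5 and 4 calls higher. BMP, GDF and activin genes had 6 of 39 higher, led by Gdf10, the BMP target Id4 (1.25) and the receptor Bmpr1b (0.84), and 2 lower, the antagonist Chrd (-0.75) and Bmp6 (-0.51), with 7, 5 and 1 called higher and 7, 2 and 0 lower when a replicate was left out in the same order. Among 23 PDGF, VEGF, angiopoietin and HGF genes, Angptl1, Hgf (1.46, 6.7% of its exon sequence shared), Pdgfd (0.87) and Nrp2 (0.77) were higher and Vegfa (-0.37) was lower, while the fits without replicate 1, 2 or 3 called 4, 4 and 4 higher and 5, 0 and 0 lower. Hgf, the hepatocyte growth factor made by mesenchymal cells, had 177, 331 and 318 normalized counts with E2 and 73.9, 97.2 and 121 with E2 plus fulvestrant (log2 difference 1.46 ± 0.15 (SE), limma adjusted p = 0.00312). For Hgf the groups were separate, with E2 above. Notch and Hedgehog genes were split, with the coreceptor Cdon (0.91) and the coactivators Maml3 (0.36) and Maml2 (0.29) higher and Gas1 (-0.52) and Gli3 (-0.48) lower.

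Homeobox factors, which set positional identity, had 11 of 57 members higher (19.3%) and 0 lower, all by modest amounts of 0.27 to 0.58, with a median of 0.09 over the list. They were led by Mkx, a regulator of tendon cells, Pbx3 (0.53) and Shox2 (0.52). Mkx had 9287, 2302 and 2213 normalized counts with E2 and 6537, 1462 and 1478 with E2 plus fulvestrant (log2 difference 0.58 ± 0.05 (SE), limma adjusted p = 0.00186). The groups of Mkx overlapped, although each pair moved the same way. Without replicate 1, 2 or 3 the number called higher was 12, 7 and 1, and 2, 0 and 0 were called lower. Among 30 nuclear receptors, Pgr (3.28) and Esr1 (2.26), both among the genes listed by the study, were higher. The oxysterol receptor Nr1h3 (-0.85), Nr4a1 and the thyroid hormone receptor Thrb (-0.60) were lower. Of 346 Zfp zinc finger genes, 9 (2.6%) were higher and 5 (1.45%) lower, below the shares over all genes. Zfp423, a factor of adipocyte precursors, led them (1.19), followed by Zfp385b (0.73).

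Signaling genes at the cell surface were mixed. Of 35 interleukins, their receptors and chemokines, 5 were higher and 7 lower (20.0%). Il1rl1, the receptor for the alarmin IL-33, had 317, 1843 and 1662 normalized counts with E2 and 1796, 3702 and 3654 with E2 plus fulvestrant (log2 difference -1.55 ± 0.27 (SE), limma adjusted p = 0.0171). Within each pair the E2 sample of Il1rl1 lay below, but across pairs the groups overlapped. Its coreceptor gene Il1rap (-0.84) and Il20rb (-1.21) were lower too. The eosinophil attractant Ccl11 (1.17), the neutrophil attractant Cxcl5 (1.00) and Cxcl16 (0.59) were higher. TNF family genes had 4 of 21 lower, led by the TWEAK receptor Tnfrsf12a (-0.96), Eda (-0.94) and Tnfrsf23 (-0.67), and Traf4 higher (0.32). Of 51 G protein-coupled and adhesion receptors, 8 were lower (15.7%) and 5 higher. Agtr2, a receptor for angiotensin, had 2096, 2035 and 2049 normalized counts with E2 and 923, 634 and 650.2 with E2 plus fulvestrant (log2 difference 1.51 ± 0.10 (SE), limma adjusted p = 0.000728). Each E2 sample of Agtr2 lay above each E2 plus fulvestrant sample. Ramp3 (-1.21) and Ramp2 (-1.14, 33.4% of its exon sequence shared), which turn the calcitonin receptor-like receptor into an adrenomedullin receptor, were both lower, as was the nucleotide receptor P2ry2 (-1.17). When replicate 1, 2 or 3 was left out, 8, 1 and 0 genes of the interleukin list were called higher and 7, 5 and 3 lower, and 12, 6 and 3 G protein-coupled receptors and 5, 3 and 1 TNF family genes were called lower. With CPM by library total, 2 TNF family genes were called lower.

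Downstream of such receptors, adenylate cyclases and phosphodiesterases, which make and remove cyclic nucleotides, had 4 of 21 higher and 0 lower, namely Pde8b (0.83), Pde3a (0.75), Adcy3 (0.66) and Pde1a (0.47). This list had 6, 4 and 2 called higher and 2, 0 and 0 lower without replicate 1, 2 or 3. Contractile genes had 6 of 34 higher and 3 lower. The LIM protein gene Csrp2 (1.52), the myosin light chain gene Myl9 (0.81) and its kinase Mylk (0.63) were higher, as was Acta2, smooth muscle actin (0.31), and the crosslinker Actn1 (-0.89) was lower. Actn1 had 7749.9, 7834 and 7410.0 normalized counts with E2 and 15921, 13491 and 13383 with E2 plus fulvestrant (log2 difference -0.89 ± 0.07 (SE), limma adjusted p = 0.000968). The groups of Actn1 did not overlap. Acta2 had 4288, 3234 and 3209 normalized counts with E2 and 3466, 2504 and 2671 with E2 plus fulvestrant. Without added E2 its pairs went both ways (0.69, -0.70 and -0.81). Contractile genes called higher numbered 7, 3 and 2 when replicate 1, 2 or 3 was left out, and those called lower 2, 2 and 2. Acta2 was also the called member of the pericyte and smooth muscle markers, whose summed counts were higher in each E2 sample, and the part of that shift in the contractile genes was not tested. Channels of the calcium and Trp list had Ryr3 and the stretch-activated Piezo2 (1.70) higher and Piezo1 (-0.32), Itpr3 (-0.34) and Stim1 (-0.37) lower.

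Called genes of glycolysis and of transport into the cell were mostly lower with E2. Of 35 genes of glycolysis and the hypoxia response, 12 (34.3%) were lower and 1 was higher, with a median of -0.20 that stayed between -0.26 and -0.16. Hk2, the hexokinase that commits glucose to glycolysis, had 251, 1898 and 1881 normalized counts with E2 and 434, 3336 and 3483 with E2 plus fulvestrant (log2 difference -0.83 ± 0.06 (SE), limma adjusted p = 0.000691). The groups of Hk2 overlapped, although each pair moved the same way. Ndrg1 (-0.79), a gene induced by hypoxia, the collagen prolyl hydroxylase P4ha2 (-0.77), the glucose transporter Slc2a1 (-0.67) and the late enzymes Eno1 (-0.32) and Ldha (-0.32) were lower, and Pfkm (0.30, 10.2% of its exon sequence shared) was higher. Without replicate 1, 2 or 3, 17, 8 and 4 were called lower. Solute carriers had 25 of 191 lower (13.1%) and 8 higher (4.19%). Those lower included the cystine importer Slc7a11 (-0.82), the glutamine importer Slc1a5 (-0.71), the leucine importer Slc7a5 (-0.53) and its partner chain Slc3a2 (-0.41), with Slc43a3 (-0.84) and Slc10a6 (-0.95) beside them. Slc7a11 had 387, 2264 and 2087 normalized counts with E2 and 657, 4019.9 and 3845 with E2 plus fulvestrant (log2 difference -0.82 ± 0.05 (SE), limma adjusted p = 0.000677). Within each pair the E2 sample of Slc7a11 lay below, but across pairs the groups overlapped. Those higher were led by Slco2a1, Slc16a4 (1.17) and the sodium-calcium exchanger Slc8a1 (1.11). Without replicate 1, 2 or 3, 35, 17 and 4 carriers were called lower.

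Antioxidant genes with a called difference were mostly lower with E2. Of 45 glutathione, thioredoxin and antioxidant genes, 10 (22.2%) were lower and 3 higher, although the median over the list was -0.03. Gclc (-0.51) and Gclm (-0.42), the subunits of the enzyme that starts glutathione synthesis, were both lower, as were Srxn1 (-0.58), Txnrd1 (-0.35) and Mt2 (-1.20), a metallothionein. Hmox1, the heme oxygenase, had 1747, 24090.1 and 23028 normalized counts with E2 and 3203, 38438 and 39558 with E2 plus fulvestrant (log2 difference -0.78 ± 0.06 (SE), limma adjusted p = 0.00129). Across replicate numbers the Hmox1 ranges of the groups overlapped, while in each pair E2 lay below. The members higher with E2 were Prdx4 (0.58), Gstm5 (0.39) and Gpx7 (0.37), of which Prdx4 and Gpx7 act in the endoplasmic reticulum. Without replicate 1, 2 or 3, 12, 9 and 5 were called lower. Cytochrome P450, aldo-keto reductase and retinoid genes had 3 of 47 higher, Akr1c14, the oxysterol hydroxylase Cyp7b1 (1.67) and Cyp2d22 (0.78), and 6 lower, led by Aldh1a7, Aldh1a1 and Hsd11b1 (-0.84), which regenerates glucocorticoid. Cyp7b1 had 88.8, 199 and 165 normalized counts with E2 and 35.5, 44.9 and 54.0 with E2 plus fulvestrant. The Cyp7b1 values of the groups were apart from each other. Fatty acid and triglyceride genes had 6 of 46 lower, led by Acss3 (-1.46), Lpin3 (-1.18) and Pdk4 (-0.81), and the desaturase Fads2 higher (0.66). Glycosyltransferases and the sulfotransferases that modify glycans, a list without Sult1a1, had 7 of 68 higher (10.3%) and 4 lower (5.88%), the latter near the share over all genes. Galnt13 (1.47) was highest and Galnt17 (-1.28), an enzyme of the same family, lowest.

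Heat shock proteins and cochaperones, 91 in all, had 9 lower (9.89%) and 2 higher. Fkbp5, a cochaperone of steroid receptors, was lowest (-3.09), with 365, 968 and 914 normalized counts with E2 and 9832, 4619 and 4449 with E2 plus fulvestrant. Each E2 sample of Fkbp5 lay below each E2 plus fulvestrant sample. The inducible heat shock genes Hspa1a (-0.86) and Hspa1b (-0.87) moved alike, and as near-identical copies they may share reads. The members higher with E2, Fkbp14 (0.51) and Fkbp7 (0.39), act in the endoplasmic reticulum. The number of this list called lower was 16, 6 and 3 when replicate 1, 2 or 3 was left out. In the unfolded protein and integrated stress list, 4 of 32 were lower, Slc7a11, Ppp1r15a (-0.47), Slc3a2 and Mthfd2 (-0.31), and the median was 0.01. Among 70 genes of replication, mitosis and cyclins, 4 were lower, the inhibitor Cdkn1c (-0.84), E2f8 (-0.76), Ccnd1 (-0.55) and Mcm2 (-0.29), near the share over all genes. The 16 lists with fewer than 4 called members had medians from -0.1 to 0.21. None of 84 ribosomal protein genes (median 0.17) and none of 37 proteasome subunits (median -0.08) was called by limma. Of 80 respiratory chain subunits, 1 was called, with a median of 0.07.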

How the data were processed

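The series holds RNA-Seq of HAFs, 12 samples in 4 groups, of which the 3 E2 and 3 E2 plus fulvestrant samples form the comparison. Per the labels and the methods, the authors trimmed reads (Trimmomatic 0.39), removed ribosomal reads, aligned to mm10 (STAR 2.5.2), counted per gene (HTSeq 0.13.5), dropped counts below 10 and normalized by the median of ratios (DESeq2 1.37). The deposited signal is a normalized count, and 100.0% of the values were whole reads times one factor per sample (within 0.001 read). The methods also name a batch adjustment, yet the deposited values still separate by replicate number.

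Log2(value + 1) was fitted with limma 3.58.1 (eBayes with a variance trend) in R 4.3.3, with the replicate number as a block, which leaves 2 residual degrees of freedom per gene. Benjamini-Hochberg adjustment ran over all 13233 genes. Replicate numbers come from the labels, and because every same-numbered pair correlated above 0.1 they were treated as pairs. Vehicle and fulvestrant samples were fitted in the same way, and the interaction on all 12. Depth was 20665975 to 35739876 reads on listed genes in the 6 samples, which sets the counting error only. In simulated data of this design, 96% of 200 changed genes were recovered (88% of those changed 1.5-fold), 4 of 196 calls were unchanged genes, and 0 were called when none was changed. The simulation gave all genes one fixed dispersion and each gene the same treatment effect in every pair. Without the block it recovered 104 of the 200, whereas the measured data had 6 genes called higher and 2 lower. These rates therefore may not hold for the measured samples.

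Gene lists were assembled by symbol and role, with Slc9a3r1, which is not a carrier, left out of the solute carriers. The lists and the genes were chosen with earlier results of these data known. Genes were named as the 12 largest called differences in each direction, of the same sign in all 3 pairs, protein-coding and not listed by the study, up to 3 called members per direction and list, members called against a list's main direction, and cell type markers. Some genes and 1 list that this rule takes in are not reported here. Other members were named after their values were seen, and so were the promoter motifs TGACGTCA and GAAANNGAA. A planned search for motifs over all called genes was not run, because 74.1% of them had a promoter entry, fewer than 80%. Symbols and positions are from GENCODE M21 (GRCm38), with 79 identifiers without a position. Python 3.11.15, pandas 2.3.3, numpy 2.4.6 and matplotlib 3.10.9 were used.

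Alternatives were the fit without the block, other pseudocounts (0.5 and 10), a mean of at least 100, quantile normalization, no trend, adjusted p alone, all 12 samples, and the removal of each replicate number in turn. Limma voom on the recovered reads, CPM by library total and a fold change over 2 were added after the data were seen.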

Additional observations from a re-analysis of the deposited data

Results flagged for a closer look

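Emilin2, which encodes a glycoprotein of elastic fibers, had differences of opposite sign in the contrasts with and without added E2. It was called in the contrast with E2 and not in the one without. Its log2 differences within the 3 pairs were 0.32, 0.55 and 0.36 for E2 minus E2 plus fulvestrant and -0.63, -0.14 and -0.19 for vehicle minus fulvestrant. The interaction was 0.73 (unadjusted p = 0.00191, adjusted p = 0.944 in limma over 13233 genes), so the difference did not pass the test over all genes.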

How the results depend on the processing

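The replicate block decided most calls. With it, 539 genes were higher with E2 and 609 were higher with E2 plus fulvestrant. When the block was dropped the counts were 6 and 2, and for vehicle against fulvestrant 0 and 0 in limma (330 and 362 with the block), where 706 genes had an unadjusted p under 0.05. Leaving out 1 replicate number, which removes a pair, gave 200 (replicate 3) to 883 (replicate 1) genes higher and 151 to 1073 lower. For vehicle against fulvestrant it gave 11 to 957 higher and 9 to 1251 lower, again lowest without replicate 3 and highest without replicate 1. Without a variance trend the counts were 128 and 90, and at a fold change over 2 they were 98 and 66. With all 12 samples in the fit, vehicle against fulvestrant had 753 and 895. The other settings (pseudocounts 0.5 and 10, a mean of at least 100, quantile normalization, CPM, voom on recovered reads, adjusted p alone) kept the total counts for E2 within 1.5 times, with 523 (CPM) to 710 lower genes (adjusted p alone). For vehicle against fulvestrant only pseudocount 10, the mean filter and voom of these were run, with 303 to 418 genes higher and 330 to 465 lower. The share of higher genes among the calls was 47.0% in the main setting against 51.6% with CPM. Of the 383 called genes that are in the 42 lists with at least 4 calls, among the 24 largest differences outside the genes listed by the study or among the markers, 363, 270 and 146 kept their call without replicate 1, 2 and 3, 80 did so without a variance trend, and 6 without the block. In the settings that tested them, 0 changed direction, but most of these settings could not reverse a gene. Leaving out a pair cannot do so where all 3 pairs share the sign. The fits without the block, without the trend or with all 12 samples keep the same mean difference. Of 58 list counts of at least 3, 1 changed by over 1.5 times with quantile normalization, 3 with CPM, 3 with voom and 5 with all 12 samples. The interaction had 0 calls with the block and 0 without it, with 501 and 67 genes at an unadjusted p under 0.05. The cause of these shifts was not tested. The planned count tests (edgeR, DESeq2) and CPM with TMM factors were not run, and voom on the recovered reads took their place. Genes under 10 reads were not analysed here.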

Other observations

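Genes called in either direction spanned more of the genome than the genes tested. The median distance from first to last exon was 38982 bases for the 539 genes higher with E2, 28199 for the genes lower with E2 and 21003 over the genes tested. Median summed exon length was 5210, 4671 and 4271 bases. The median level was 1011 normalized counts for the genes higher with E2, 1651 for those lower and 792 over all genes, as the mean of the 6 samples and not corrected for length. Of the called genes, 750 were in no list.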
